A study of Mus musculus with 48 samples.

Results

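The cytosolic ribosomal protein genes encode the protein components of the 40S and 60S subunits that read mRNA. They were taken here as every gene of the deposited count table whose symbol is Rpl or Rps with a number, Rplp0 to Rplp2 or Rpsa, without pseudogenes and without the Rps6k kinases. Of 84 symbols that match, 2 (Rps3a3 and Rps4l) are annotated as processed pseudogenes and were left out, which gave 82 genes of the 14125 in the table. They comprise 43 proteins of the 60S subunit, 31 of the 40S subunit, 3 of the P stalk and 5 paralogues of another member, and they lie on 19 chromosomes.

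Gastrocnemius muscle of male C57BL6J mice was profiled after 2 weeks of corticosterone or vehicle, with or without inhibition of adipose triglyceride lipase, which begins the release of fatty acids from stored fat. EtOH_CON mice (n = 10) drank 1% ethanol and ate the control diet, and EtOH_ATGLi mice (n = 10) drank the same and ate the lipase inhibitor atglistatin at 571 mg/kg of food. Cort_CON mice (n = 14) and Cort_ATGLi mice (n = 14) received corticosterone, the main glucocorticoid of rodents, at 100 ug/ml of drinking water with the respective diet. Whether that water also held ethanol is not stated in the labels, and a difference in ethanol could not be told apart from corticosterone. The labels call 9 of the 14 Cort_CON mice diabetic and all mice of the other 3 groups nondiabetic, so that diabetes cannot be told apart from Cort_CON membership in the set as a whole. Age is not given in the labels, and ribosomal protein itself was not measured.

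A ribosome holds each core protein in a single copy, except for the proteins of the P stalk, and cells normally keep the mRNAs of the set at matched levels. Most of these mRNAs begin with a C followed by a tract of pyrimidines (the 5′ terminal oligopyrimidine or TOP motif), through which the kinase complex mTORC1 and the protein Larp1 set how well they are translated and how stable they are. In skeletal muscle the making of ribosomes is associated with growth, whereas excess glucocorticoid is known for muscle wasting and for blocking mTORC1 through factors such as Ddit4.

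The libraries were 3′ counts from Lexogen QuantSeq, in which a molecule is read near its polyA tail, so that counts are not scaled by transcript length and levels are compared here only within a gene. Library totals lay between 10453888 and 24034481 counts, and all counts were even numbers in 47 of the 48 libraries; the exception was p13 of EtOH_ATGLi, which also had the highest total. The 7 myofibre markers (Ckm, Acta1, Myh4 and others) summed to between 73857 and 146300 CPM (library counts scaled to a common total with edgeR's TMM factors) across the libraries, lowest in p41 of Cort_ATGLi. That library and p45 of Cort_CON also had the highest summed satellite cell markers of their groups, at 73.4 and 61.1 CPM against group medians of 35.6 and 37.7 CPM. The labels do not state that each library is a separate mouse, although each has its own glucose and insulin value, and p-values measure the spread between libraries. All 82 genes passed the filter on low counts, with mean levels from 8.04 to 1013 CPM.

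The start sites of the 4 matched members with the highest and the 4 with the lowest change on the control diet are shown first. A pyrimidine tract at the very start of the mRNA is the feature for which this class is known, but the runs marked below were not required to begin there. Of the 82 members, 62 were matched by symbol to RefSeq promoters on GRCm38.p6. The 30 bases below run 5′ to 3′ on the gene's strand, 15 on each side of the annotated start, with the longest unbroken run of C and T in capitals. In Rpl10a, Rps19, Rpl24 and Rpl36al that run lies wholly before the start, so it is not part of the annotated mRNA. In Rpl3l it lies near the end of the window. Rpl22l1, Rps27, Rpl10a and Rps19 rose with corticosterone on both diets, and Rpl24, Rps24, Rpl3l and Rpl36al passed the test on neither.
Rpl22l1: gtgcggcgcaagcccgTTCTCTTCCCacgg
Rps27: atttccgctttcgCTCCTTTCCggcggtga
Rpl10a: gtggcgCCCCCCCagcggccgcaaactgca
Rps19: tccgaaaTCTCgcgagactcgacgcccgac
Rpl24: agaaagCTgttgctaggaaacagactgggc
Rps24: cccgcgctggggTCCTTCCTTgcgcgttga
Rpl3l: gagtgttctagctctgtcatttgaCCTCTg
Rpl36al: caTTCCCgtcgctcaggttcagttccgact
The windows lie, in that order, at chr3:28805493-28805522 (plus), chr3:90213634-90213663 (minus), chr17:28328456-28328485 (plus), chr7:24884577-24884606 (plus), chr16:55966260-55966289 (plus), chr14:24490663-24490692 (plus), chr17:24727811-24727840 (plus) and chr12:69184053-69184082 (minus), with the strand in brackets, each made of promoter bases followed by the first transcribed bases. Long and short runs stand at both ends: 10 bases in Rpl22l1 but 4 in Rps19, and 9 in Rps24 but 2 in Rpl24. A run of 8 or more C or T within 15 bases of the start was found in 25 of the 62 matched members (40.3%) and in 11.8% of the 27025 promoters of the table. Rps6, whose protein is the substrate of S6 kinase in the mTORC1 pathway, has a run of 10 such bases. It did not pass the test, at a mean of 9.99 CPM and with the widest within-group spread of the 82 genes (SD 0.45 on the log2 scale). A change of the size of the median member could therefore be missed in it. Rplp0 passed, and its run of 5 lies before the start. The median log2 fold change on the control diet was 0.31 in the 25 genes with the longer run and 0.34 in the 37 with a shorter one. Runs were counted on either side of the annotated start and no C at the start was required. This split therefore does not sort the members by TOP motif, and the part of that motif in the change was not tested.

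Other letters were counted on both strands from 250 bases before to 50 after the start. The ETS core CCGGAAG, bound by factors such as Gabpa, was present in 38.7% of the matched members and 9.14% of all promoters. The YY1 letters AAGATGGC were in 9.68% and 2.87%, TATAAA in 11.3% and 14.2%, and the E box CACGTG, bound by Myc and Max, in 8.06% and 7.24%. The full glucocorticoid response element, which is the half-site AGAACA followed after 3 bases by its reverse complement, was in 0 of the 62 members and in 1 of the 27025 promoters, and the half-site by itself in 16.1% and 19%, with each count of the full element also counted for the half-site. A match of letters is a description and not a bound site.

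Corticosterone raised the mRNA of most ribosomal protein genes by a small amount that was shared by both subunits. On the control diet 69 of the 82 members were higher and 0 lower in Cort_CON than in EtOH_CON mice, at an adjusted p under 0.05 by edgeR's quasi-likelihood test, while 18.9% of the 12592 genes tested were called higher and 19.5% lower. At an unadjusted p under 0.05 the count was 73, all of them higher. The median member changed by 0.31 on the log2 scale, a rise of 24.3%, beside -0.0011 for all genes tested, and members ranged from -0.05 to 0.72. None of the 82 reached a 2-fold change, whereas 7.47% of all genes tested were called with a change of that size. The plot of changes gene by gene shows how evenly the set is spread around its median.

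**Figure D1:**
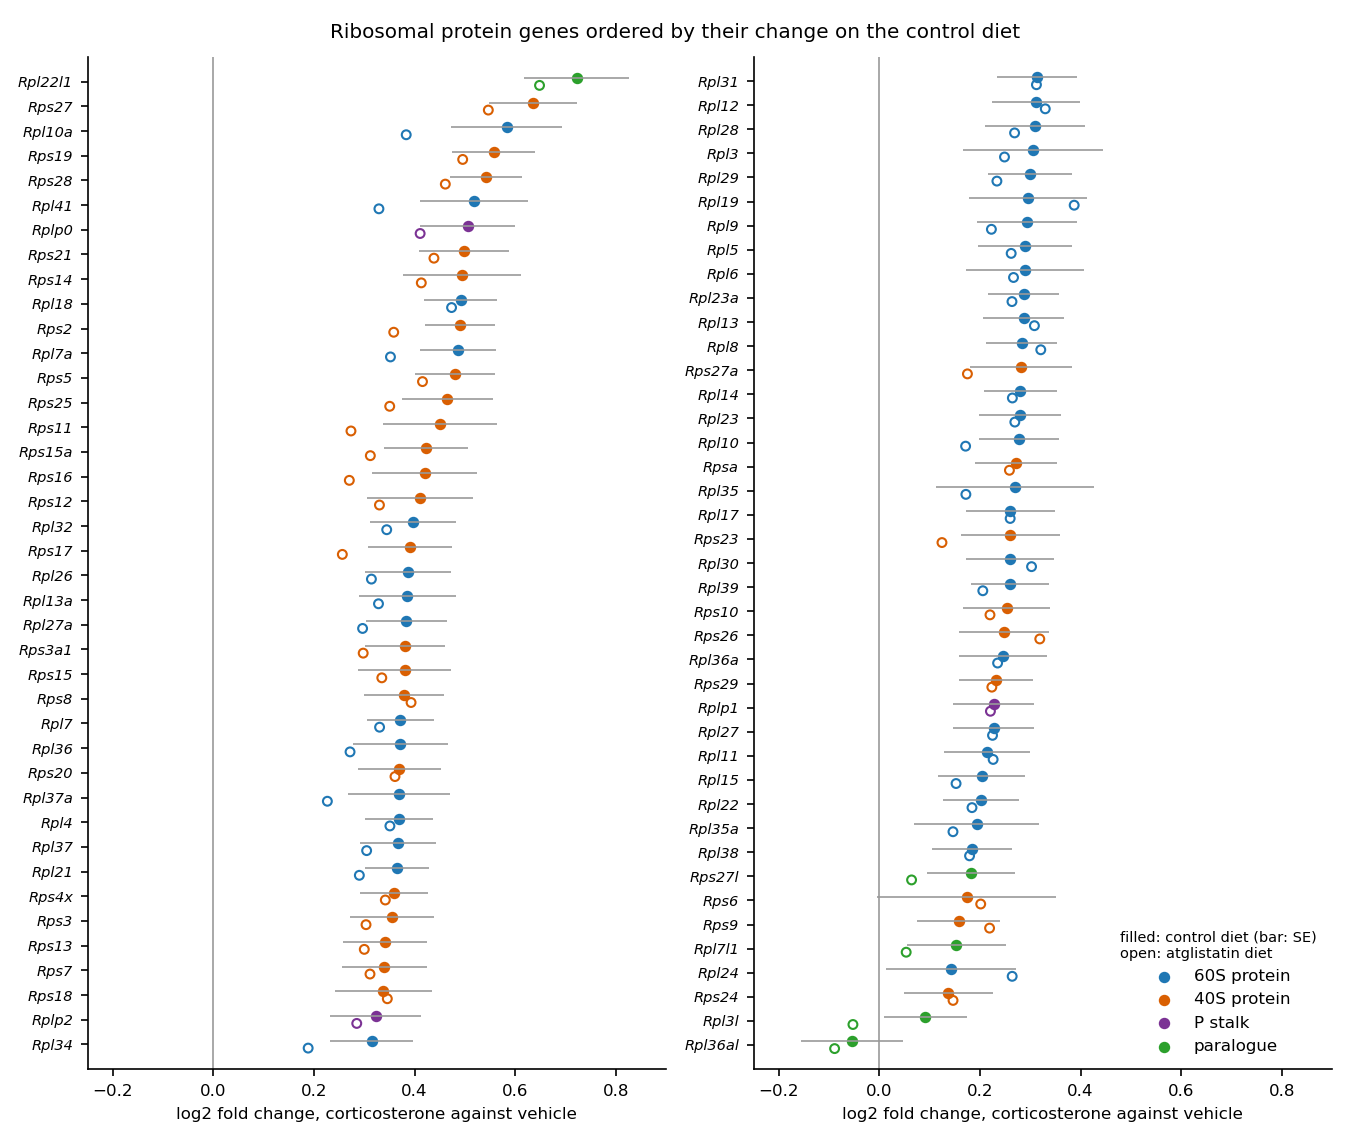
Log2 fold change of 81 of the genes with corticosterone, ordered by the value on the control diet (filled points, bars are the standard error of the fit) with the value on the atglistatin diet beside it (open points); colours give the role. Only Rpl36al lies below 0 on the control diet, and 4 of the 5 paralogues sit near the lower end while Rpl22l1 leads.

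The share of all counts that fell on these genes shows the same difference library by library. It lay between 1.71% and 2.09% in EtOH_CON mice (median 1.91%), between 1.81% and 2.28% in EtOH_ATGLi mice (median 2.03%), between 1.86% and 2.65% in Cort_CON mice (median 2.23%) and between 2.08% and 3.14% in Cort_ATGLi mice (median 2.34%). The ranges overlapped: 10 of 14 Cort_CON libraries were above the highest EtOH_CON library, and 9 of 14 Cort_ATGLi libraries were above the highest EtOH_ATGLi library. Averaged over the 82 genes on the log2 scale and set against the EtOH_CON mean, libraries were at 0.32 ± 0.21 (SD, n = 14) in Cort_CON and 0.36 ± 0.19 (SD, n = 14) in Cort_ATGLi, against 0.08 ± 0.12 (SD, n = 10) in EtOH_ATGLi and an SD of 0.14 (n = 10) in EtOH_CON itself. The library with the 3.14% share, p41 of Cort_ATGLi, was at 0.42 on this scaled measure, below p25 at 0.77, p24 at 0.70 and p42 at 0.50.

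**Figure D2:**
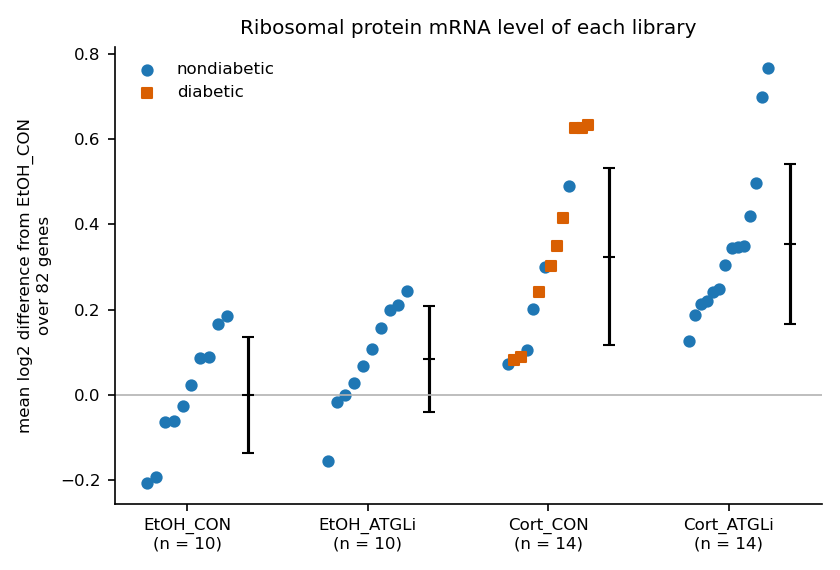
Mean log2 difference of the 82 genes from the EtOH_CON mean, 1 point per library, with the group mean and SD as a black bar and diabetic Cort_CON mice as squares. All 28 corticosterone libraries lie above 0, and the lowest of them overlap the vehicle groups.

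The median change was higher for the 40S than for the 60S proteins. Of the 32 genes of the 40S subunit 28 rose, with a median of 0.37, and of the 50 genes of the 60S subunit (P stalk and paralogues included) 41 rose, with a median of 0.29. Without the P stalk and the paralogues 28 of 31 genes of the 40S and 37 of 43 of the 60S subunit rose. The difference between subunits was not tested. On the 40S side the leading genes were Rps27, a zinc-finger protein of the subunit's solvent side, Rps19, whose human gene is the one most often mutated in Diamond-Blackfan anaemia, and Rps28.

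Rps27 was measured at 174, 232 and 271 CPM (lowest, median and highest) in EtOH_CON and at 277, 358 and 469 CPM in Cort_CON mice. On the atglistatin diet the same values were 239, 261 and 300 CPM with vehicle and 319, 370 and 502 CPM with corticosterone. Every corticosterone library was above every vehicle library of its diet, and the log2 fold changes were 0.64 (SE 0.09) and 0.55 (SE 0.09), with edgeR adjusted p of 3.17e-08 and 1.49e-06.

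Rps28 was as cleanly separated, at 231, 241 and 280 CPM in EtOH_CON and 291, 352 and 422 CPM in Cort_CON mice. Its log2 fold change was 0.54 (SE 0.07, edgeR adjusted p = 1.33e-08) on the control diet and 0.46 on the atglistatin diet. Rps28 overlaps Kank3 on the opposite strand, and no source at hand gives the strand used in counting, so part of its counts could belong to that gene. For Rps19 the values were 152, 170 and 204 CPM in EtOH_CON and 195, 254 and 328 CPM in Cort_CON mice, where the groups overlapped and 11 of 14 corticosterone libraries exceeded all vehicle libraries; the log2 fold change was 0.56 (SE 0.08, edgeR adjusted p = 1.76e-07).

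Other members of the small subunit rose less. Rps14, a platform protein whose loss underlies the anaemia of 5q- syndrome, was 0.49 higher on the log2 scale, Rps20, of the subunit's head, 0.37 higher, Rps27a, which is made as a fusion with ubiquitin, 0.28 higher, and Rpsa, also known as the laminin receptor, 0.27 higher. The 3 genes of the small subunit that did not pass outside the paralogues were Rps24 at 0.14, Rps9 at 0.16 and Rps6 at 0.17 with an SE of 0.18. Rps6 was measured at 5.34, 9.20 and 12.3 CPM in EtOH_CON and 5.24, 9.61 and 18.4 CPM in Cort_CON mice, and 3 of 14 Cort_CON libraries were above the vehicle range. With that SE a change of the size of the median member could be missed.

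Among the 60S proteins Rpl10a, which forms the mobile L1 stalk by which spent tRNA leaves, rose most apart from the paralogues, by 0.58 (SE 0.11, edgeR adjusted p = 2.00e-05). It was measured at 6.94, 10.4 and 12.6 CPM in EtOH_CON and 10.2, 15.1 and 21.9 CPM in Cort_CON mice, and 10 of 14 libraries were above the vehicle range. Rpl41, the smallest ribosomal protein, rose by 0.52 (SE 0.11), and Rpl37, a member of high count, by 0.37 (SE 0.08).

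Rpl18 and Rpl4, whose protein lines the tunnel through which the new peptide leaves, were measured more precisely. Rpl18 was at 97.8, 118 and 133 CPM in EtOH_CON and 134, 162 and 198 CPM in Cort_CON mice, with no overlap and a log2 fold change of 0.49 (SE 0.07, edgeR adjusted p = 1.48e-07). Rpl4 was at 616, 760 and 886 CPM in EtOH_CON and 814, 974 and 1142 CPM in Cort_CON mice, with 11 of 14 libraries above the vehicle range and a log2 fold change of 0.37 (SE 0.07).

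Rpl5 and Rpl11, which with 5S rRNA form the particle that can bind Mdm2 and thereby stabilise p53, rose by 0.29 (SE 0.09) and 0.21 (SE 0.09). The 60S genes outside the paralogues that did not pass were Rpl24, Rpl38, Rpl35a, Rpl15, Rpl35 and Rpl3, with log2 fold changes from 0.14 to 0.31. Rpl35 at 0.27 and Rpl3 at 0.31 changed by about as much as the median member but had SEs of 0.16 and 0.14, where those of the 82 genes began at 0.064.

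The P stalk, the flexible arm that recruits elongation factors and the only part of the ribosome with several copies of a protein, rose in all 3 of its genes. Its base Rplp0 was at 174, 247 and 290 CPM in EtOH_CON and 273, 330 and 455 CPM in Cort_CON mice, a log2 fold change of 0.51 (SE 0.09, edgeR adjusted p = 1.58e-05). Its arms Rplp1 and Rplp2 changed by 0.23 (SE 0.08) and 0.32 (SE 0.09). For all 3 the groups overlapped, with 10, 6 and 9 of 14 Cort_CON libraries above the vehicle range.

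Of the 5 paralogues 1 passed the test, and that one had the highest change of all members. Rpl22l1, the paralogue of Rpl22, was at 50.6, 62.7 and 72.9 CPM in EtOH_CON and 62.1, 97.2 and 136 CPM in Cort_CON mice. On the atglistatin diet it was at 44.3, 68.3 and 76.9 CPM with vehicle and 62.7, 102 and 140 CPM with corticosterone. In each diet 13 of 14 corticosterone libraries were above the vehicle range, the exceptions being p45 of Cort_CON and p41 of Cort_ATGLi. The log2 fold changes were 0.72 (SE 0.10, edgeR adjusted p = 9.43e-08), or 1.65-fold, and 0.65 (SE 0.10, edgeR adjusted p = 1.54e-06). Rpl22 itself changed by 0.20 (SE 0.08, edgeR adjusted p = 0.027), so that the log2 ratio of Rpl22l1 to Rpl22 averaged -1.91 ± 0.21 (SD, n = 10) without and -1.41 ± 0.20 (SD, n = 14) with corticosterone on the control diet.

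Rpl3l, which replaces Rpl3 in the ribosomes of mature striated muscle, was at 423, 490 and 556 CPM in EtOH_CON and 353, 546 and 682 CPM in Cort_CON mice. It overlapped widely and its log2 fold change was 0.09 (SE 0.08, edgeR adjusted p = 0.41). Its lowest values in the corticosterone groups were those of p45 (353 CPM) and p41 of Cort_ATGLi (290 CPM), and the same libraries held the highest values of Rpl3, at 75.7 and 107 CPM against group medians of 40.4 and 36.6 CPM. The log2 ratio of Rpl3l to Rpl3 was 2.22 and 1.44 there, against group medians of 3.75 and 3.76. These are also the libraries in which the satellite cell markers were highest, and the part of those markers in the ratio was not tested.

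Rpl36al, a retained copy of Rpl36a, was at 27.7, 43.4 and 50.1 CPM in EtOH_CON and 23.3, 41.9 and 48.6 CPM in Cort_CON mice, with a log2 fold change of -0.05 (SE 0.10, edgeR adjusted p = 0.71). No corticosterone library exceeded the vehicle range on either diet. Its parent Rpl36a rose by 0.25 (SE 0.09). Rpl7l1, a factor in the maturation of the large subunit, changed by 0.15 (SE 0.10) beside 0.37 for Rpl7. Rps27l, a target of p53, changed by 0.18 (SE 0.09) beside 0.64 for Rps27, and the log2 ratio of Rps27l to Rps27 was -1.22 ± 0.14 (SD, n = 10) in EtOH_CON, -1.35 ± 0.08 (SD, n = 10) in EtOH_ATGLi, -1.67 ± 0.10 (SD, n = 14) in Cort_CON and -1.84 ± 0.15 (SD, n = 14) in Cort_ATGLi mice. The differences between paralogue and parent were not tested.

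**Figure D3:**
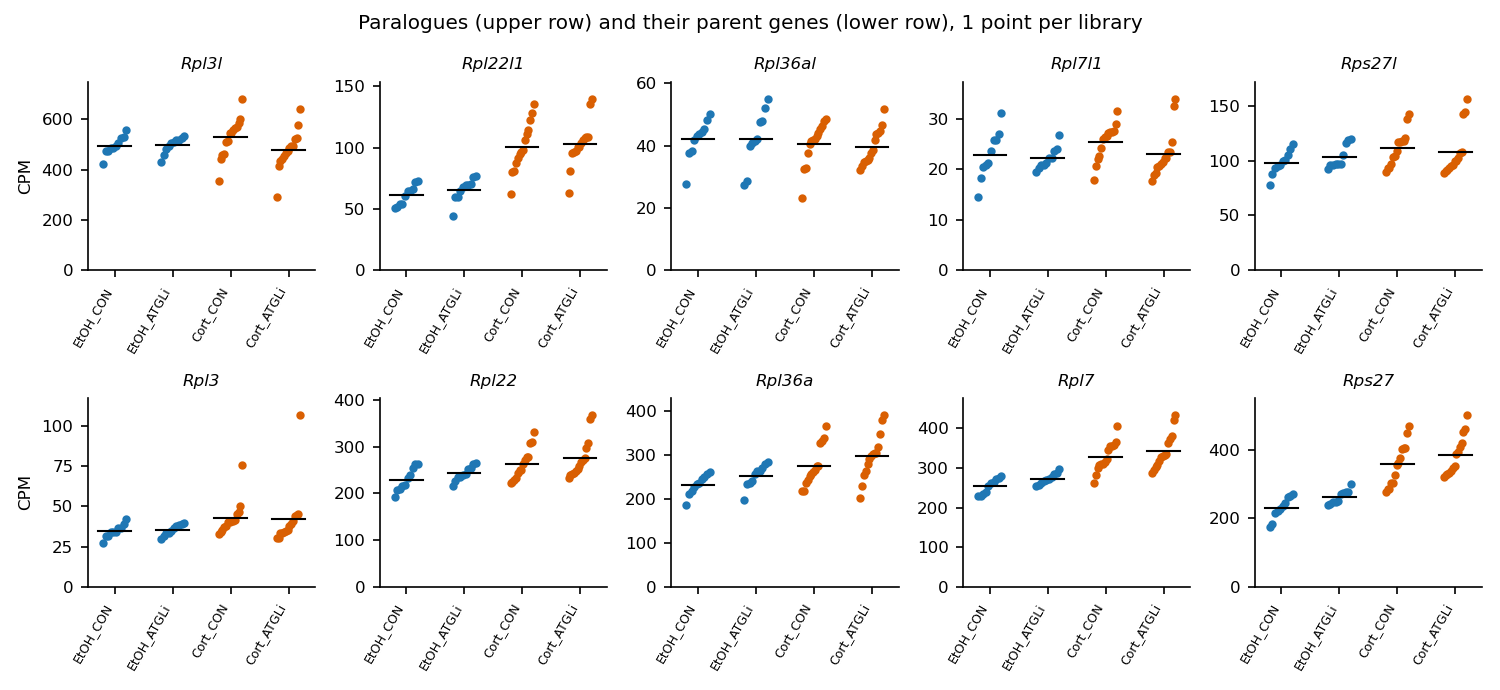
CPM of the 5 paralogues (upper row) and their parent genes (lower row), 1 point per library, vehicle in blue and corticosterone in orange, with the group mean as a line; each axis starts at 0 and has its own scale. On the control diet the corticosterone libraries above the whole vehicle range are 13 of 14 for Rpl22l1 and 7 for Rpl22, 7 for Rps27l and 14 for Rps27, 1 for Rpl7l1 and 13 for Rpl7, 0 for Rpl36al and 7 for Rpl36a, and 6 for Rpl3l and 4 for Rpl3.

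With atglistatin in the food the response to corticosterone was of about the same size. In Cort_ATGLi against EtOH_ATGLi mice 61 of 82 members were higher and 0 lower, where 15% of all genes tested were called in each direction. The median log2 fold change was 0.29, a rise of 22.1%, with members from -0.09 to 0.65, and the median of all genes was -0.0016. The comparisons on the 2 diets share no library. In both diets 60 genes were called, 9 on the control diet alone, Rps9 on the atglistatin diet alone and 12 on neither. Members without overlap between vehicle and corticosterone libraries were 5 on each diet, where 2.37% of all genes on the control diet and 1.84% on the atglistatin diet lay wholly above: Rpl18, Rps27 and Rps28 on both, Rpl7a and Rps2 on the control diet, and Rpl4 and Rps19 on the atglistatin diet. Rpl7a and Rps2 were named after their values were seen, and Rps2 overlaps Snhg9 on the opposite strand.

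The change with corticosterone was larger on the control diet than on the atglistatin diet in 69 of 82 genes, but the test of that difference called none of them. For this interaction edgeR gave 0 genes at an adjusted p under 0.05 and 0 at an unadjusted p under 0.05, with 0.0397% of all genes called in either direction, and DESeq2 and limma voom also called 0 members. Interaction values ran from -0.20 to 0.12 (median -0.05), with SEs from 0.090 to 0.25. A p that misses the threshold does not show that the response was equal on the 2 diets. Since the genes move together across libraries, the 69 do not stand for separate measurements. All 9 diabetic mice were in Cort_CON, so a difference between the diets under corticosterone cannot be told apart from diabetes. Without those mice, with 5 Cort_CON libraries left, the control-diet median was 0.23, against 0.29 on the atglistatin diet.

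Atglistatin alone called none of the members. In EtOH_ATGLi against EtOH_CON mice 0 of 82 passed by edgeR, DESeq2 and limma voom, where edgeR called 0.0238% of all genes. By edgeR 5 had an unadjusted p under 0.05 (among them Rpl10a, Rps4x, Rpl4 and Rps27, of which Rps4x was named after its values were seen). The estimate was above 0 for 79 of the 82 genes, with a median of 0.08 beside -0.0029 for all genes; since the genes move together across libraries, that count does not stand for 79 separate measurements. In Cort_ATGLi against Cort_CON mice 0 of 82 passed by the same 3 tools, where edgeR called 1.6% of all genes, and 2 had an unadjusted p under 0.05, with a median of 0.03. Only Cort_CON held diabetic mice, so atglistatin and diabetes cannot be told apart in that comparison.

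**Figure D4:**
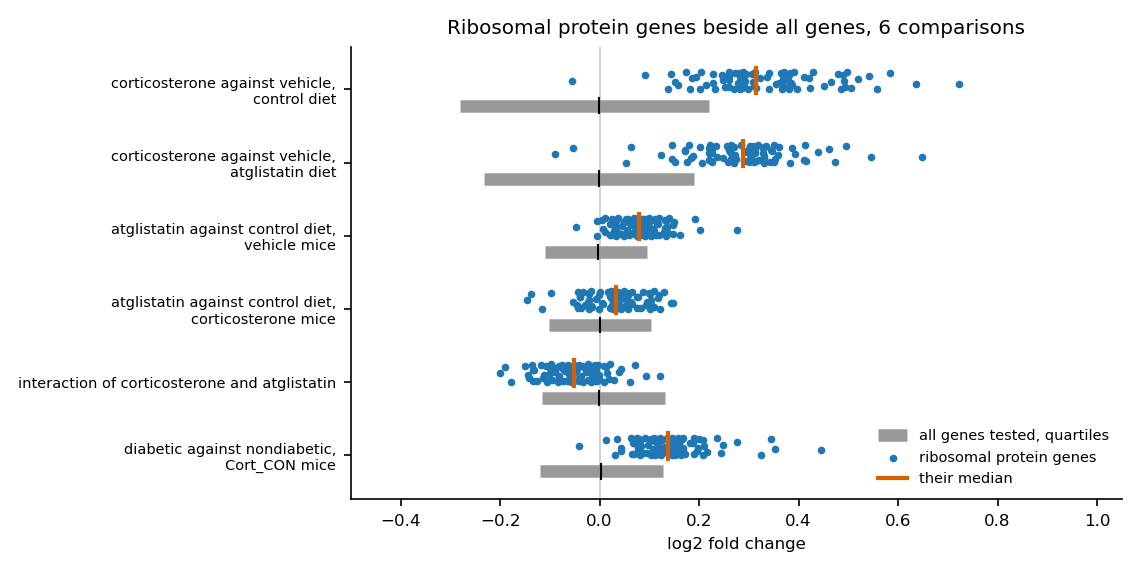
Log2 fold change of the 82 genes (points, with their median as an orange line) in each of 6 comparisons, above a grey bar for the quartiles of all genes tested and a black line for their median. The member medians of 0.31 and 0.29 lie to the right of the grey bar in both corticosterone comparisons, that of 0.14 lies just beyond its right end for diabetes, and the other 3 lie within it.

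Among Cort_CON mice the diabetic animals were not separable from the nondiabetic ones at this sample size. One mouse labelled nondiabetic, p36, had a fed glucose of 242 (unit not stated), near the 254 of diabetic p37. The nondiabetic p29, p32, p33 and p49 had values from 131 to 145. The mean log2 difference from EtOH_CON over the 82 genes was 0.37 ± 0.22 (SD, n = 9) in diabetic and 0.23 ± 0.17 (SD, n = 5) in nondiabetic mice. The test called 0 members by edgeR, DESeq2 and limma voom, and 0% of all 13084 genes tested by edgeR; 4 members by edgeR, 4 by DESeq2 and 3 by limma voom had an unadjusted p under 0.05. The median log2 difference was 0.14 and 81 of 82 estimates were above 0. Here too the genes move together across libraries, so these are not 81 separate measurements.

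Without the diabetic mice the control-diet comparison called 28 members, all higher and all among the 69, with a median of 0.23 and 22.7% of all genes called in either direction. In that comparison of 5 with 10 libraries Rpl22l1 was 0.66 higher, Rps27 0.51, Rps28 0.43 and Rpl18 0.39, and these 4 passed. Rpl5 at 0.21, Rpl11 at 0.17, Rplp1 at 0.14, Rplp2 at 0.22, Rpsa at 0.18 and Rps27a at 0.21 did not pass, and each of these values was below the one with all 14 libraries.

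The levels of the genes varied together from library to library, also inside a group. The deviations of 82 genes from their group means had a median correlation of 0.70 over 3321 pairs, of which 3308 were above 0, and the first principal component held 63.5% of that variation. These points share libraries and their scaling, so the values are a description. Against the mean of the other 81 genes, 79 had a correlation over 0.5; the exceptions were Rpl3 at 0.23, Rpl6 at 0.31 (named after its value was seen) and Rps6 at 0.40. In EtOH_ATGLi a single library, p13, was the lowest for 60 of the 82 genes, and in Cort_ATGLi p25 was the highest for 47. That p13 is also the library whose counts were not all even and whose total was the highest. The part of this difference in its low values was not tested. The atglistatin-diet comparison called 48 members when p13 was left out, 48 when p25 was left out instead, and 50 without p24 of Cort_ATGLi. In EtOH_CON p10 was lowest for 41 genes and p01 for 33, and in Cort_CON p27 was highest for 38. The control-diet comparison called 61 members without p10 and 61 without p27.

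Annotation limits some of the values. Listed pseudogenes exist for 37 members, and their counts came to over 10% of the parent's in Rps6 (18.6%) and Rpl10a (15.9%), so reads of these genes may be split. Of those 37 genes 32 rose on the control diet, with a median of 0.31, and of the 45 without a listed pseudogene 37 rose, with a median of 0.32. Another listed gene overlaps 17 members, 16 of them on the opposite strand, among them Rpl3 (Syngr1), Rpl5 (Fam69a) and Rps14 (Ndst1), and 14 of these 17 rose.

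Genes that belong to the ribosome or to its mRNA class but not to the symbol rule were examined for comparison. Among ribosomal proteins with other names, Rack1, a scaffold on the 40S head, rose by 0.39 (SE 0.08), and Fau, made as a fusion with a ubiquitin-like domain, by 0.36 (SE 0.11). Of 21 other translation genes with TOP mRNAs 8 rose and 1 fell, with a median of 0.22. The initiation factor subunit Eif3f rose by 0.74 (SE 0.07) from a median of 118 to 187 CPM, and the elongation factor subunit Eef1b2 by 0.47 (SE 0.08). The gene that fell was Vim (-0.72, SE 0.12), an intermediate filament protein of mesenchymal cells whose mRNA is in the TOP class.

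Factors that assemble ribosomes had a smaller median change than the ribosomal proteins, a difference that was not tested. Of 68 biogenesis factors 21 rose and 1 fell, with a median of 0.16, and the smallest p-values were those of Las1l (0.47), which cuts the internal spacer of pre-rRNA, Wdr43 (0.43), a part of the small subunit processome, and Emg1 (0.41), which methylates 18S rRNA. Of 36 subunits and factors of RNA polymerases I and III 11 rose and 3 fell, with a median of 0.09. Here Max, the partner of Myc, rose by 0.79 (SE 0.08), Gtf3a, which directs 5S rRNA transcription, by 0.55 (SE 0.09) and Polr3c by 0.53 (SE 0.07). Mitochondrial ribosomal proteins, which serve a separate ribosome, gave 16 higher and 2 lower of 76 with a median of 0.12, and the smallest p-values were those of Mrpl50 (0.39), Mrpl38 (0.30) and Mrps24 (0.38). Beside these counts stand the 18.9% of all genes called higher.

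Regulators of mTORC1 and of TOP mRNAs changed in both directions, 11 higher and 3 lower of 32 with a median of 0.14. Of all genes tested 18.9% were called higher and 19.5% lower. Ddit4l, an inhibitor of mTORC1 related to Ddit4, fell by 1.13 on the log2 scale (SE 0.11) from a median of 477 to 210 CPM. Sesn1, an inhibitor that senses leucine, rose by 1.89 (SE 0.23) from 10.02 to 30.1 CPM, and Cnbp, which binds the TOP element, rose by 0.53 (SE 0.07). Ddit4 itself, named after its values were seen, rose by 2.99 (SE 0.54, edgeR adjusted p = 1.56e-05). Among 10 regulators and binding partners of ribosomal protein genes 2 rose and 1 fell, which is near or below the shares of all genes. Cdkn1a, the cell cycle inhibitor p21 and a target of p53 and of the glucocorticoid receptor, rose by 4.11 (SE 0.32) from a median of 24.3 to 336 CPM, Mdm2 fell by 0.27 (SE 0.08, edgeR adjusted p = 0.0031) and Yy1 rose by 0.22 (SE 0.09, edgeR adjusted p = 0.037).

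On the atglistatin diet the counts higher and lower were 12 and 1 of 21 for the TOP genes, 21 and 1 of 68 for biogenesis, 6 and 3 of 36 for the polymerases, 10 and 6 of 32 for the mTORC1 list, 10 and 2 of 76 for the mitochondrial ribosome and 1 and 0 of 10 for regulators. Beside these counts stand the 15% of all genes called in each direction, near which the shares of the polymerases and of the mitochondrial ribosome called higher lie.

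**Figure D5:**
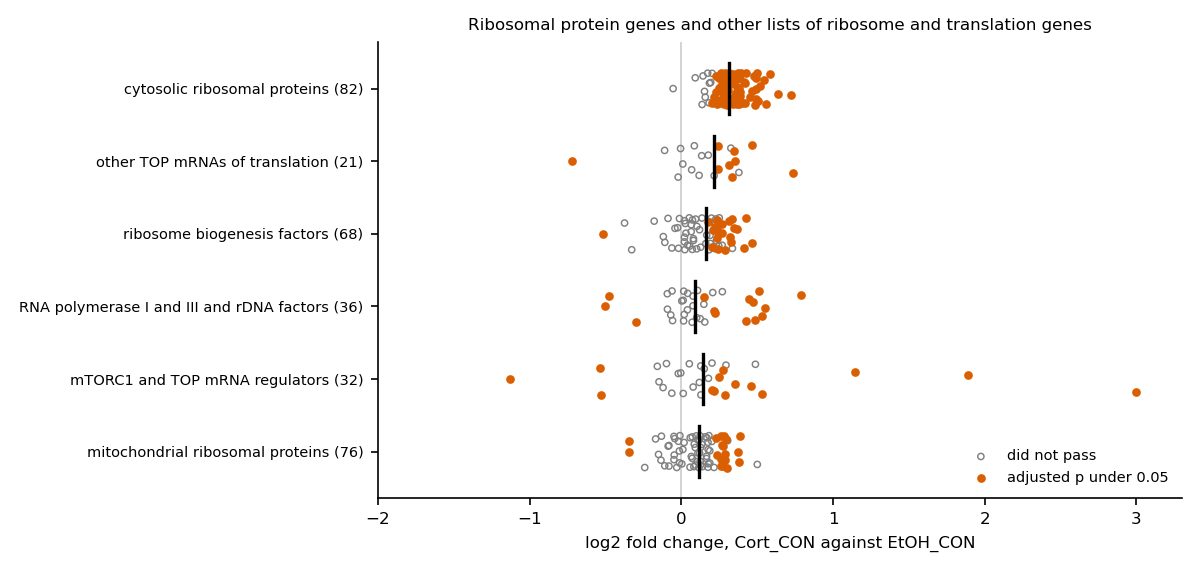
Log2 fold change of each gene, Cort_CON against EtOH_CON, for the ribosomal protein genes and 5 other lists (number of genes tested in brackets), with called genes filled and the list median as a vertical line. The ribosomal proteins form a narrow group around 0.31, and the other lists are wider with medians between 0.09 and 0.22.

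Markers of other cell types moved with corticosterone in the same libraries. Fewer cells of a type and less RNA per cell cannot be told apart in whole muscle. Of 7 fibro-adipogenic markers 6 were lower on the control diet, and their sum went from 1239 to 1534 CPM in EtOH_CON to 506 to 983 CPM in Cort_CON mice. Of 6 macrophage markers 4 were lower, and of 6 endothelial markers 4 were lower and 1 higher. Ighm, the single lymphocyte marker tested, fell by 2.02 on the log2 scale (Cd79a, Cd3e and Ms4a1 are not listed in the table). Of 5 erythroid markers 4 were higher on the control diet and 1 on the atglistatin diet. Their sum ran from 719 to 1090 CPM in EtOH_CON, 738 to 1742 CPM in Cort_CON, 703 to 1627 CPM in EtOH_ATGLi and 554 to 2432 CPM in Cort_ATGLi mice. Of 5 satellite cell markers 2 were higher and 2 lower. Of 4 tendon markers 3 were lower and 1 higher, with a median of -1.55, of 4 smooth muscle and pericyte markers 3 were lower, and of 4 Schwann cell markers 2 were lower. Of 5 adipocyte markers 1 was higher and 1 lower, and of the 7 myofibre markers 3 were higher and 1 lower. The part of these cell types in the change of the ribosomal protein genes was not tested.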

How the data were processed

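QuantSeq 3′ libraries were made from total RNA of powdered frozen gastrocnemius, per the labels' protocols. The deposited table holds raw counts per Ensembl gene made by the authors; the submitters' processing notes name GRCm38, R 3.6.1 and DESeq2 1.24.0, while aligner, counter, strand setting and annotation were not given in the sources used here. Left aside was the authors' deposited table of normalized values. Symbols, biotypes and overlaps were taken from GENCODE M21.

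Counts were tested with edgeR 4.0.16 in R 4.3.3 (TMM factors, robust quasi-likelihood fit of 4 group means over 48 libraries; the diabetic comparison used 5 groups), after a filter at a minimum count of 10 and total of 15 that removed 1533 genes. P-values were adjusted by Benjamini-Hochberg over all genes tested, with a threshold of 0.05, and the fit was tested on simulated data. Alternatives were DESeq2 1.42.0, limma voom 3.58.1, other scalings, no filter, halved counts, a replicate block and libraries left out. Members and gene lists were chosen with earlier results of these data known. Named genes are the 6 highest and 6 lowest members on the control diet, the paralogues with their parents, the 5 with the highest mean CPM, up to 4 called members with the smallest p in each other comparison, members of known role, and the 3 genes with the smallest p in each other list. Values of 2 genes are not reported here.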

Additional observations from a re-analysis of the deposited data

Results flagged for a closer look

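Values of 30 named members and their summed share were checked within EtOH_CON, EtOH_ATGLi, diabetic Cort_CON and nondiabetic Cort_CON mice for a library far from its group by Dixon's criterion. Of 124 checks 6 met it, where chance gives about 1 in 20. Rpl22l1 was at 44.3 CPM in p13 of EtOH_ATGLi (n = 10), below a group median of 68.3 CPM. Rpl3 was at 75.7 CPM in p45, the highest of the 9 diabetic mice, whose median was 41.02 CPM. In the 5 nondiabetic mice Rpl7l1 was at 17.9 CPM in p49 against a median of 26.3 CPM, and p29 was far above the others for Rplp1 (1210 CPM, median 967 CPM), Rps20 (842 CPM, median 712 CPM) and Rps28 (391 CPM, median 320 CPM).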

How the results depend on the processing

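The counts of members called with corticosterone kept their direction under every alternative run, with 0 members lower. On the control diet they were 67 to 69 with DESeq2, limma voom, DESeq2 size factors, TMM without the members, no filter, halved counts or pseudogene counts summed in (the last chosen after seeing the data), and 47 with library totals alone, which put the median of all genes at -0.11 and left the members 0.31 above it. Without the diabetic mice, which leaves 5 Cort_CON libraries, the count was 28. On the atglistatin diet library totals gave 52 and the other settings of that kind 60 to 62. Leaving out p01 of EtOH_CON and p41 of Cort_ATGLi, also chosen after seeing the data, gave 66 and 62. With 1 library left out the counts were 61 to 70 on the control diet and 48 to 64 on the atglistatin diet, and 0 in all other comparisons. For atglistatin in corticosterone mice, library totals gave 2 members, with 2.33% of all genes called. Some libraries of different groups share a replicate number, and the correlations of their deviations ran from -0.18 to 0.23. Pairs without a shared number were not set beside them, so these values cannot show whether more than the number is shared. A replicate block on the 12 libraries concerned called 27 members on the atglistatin diet, against 15 in the same libraries without it, where the share of all genes called was 7.18% against 11.1%, and turned Rpl36al to 0.61; the cause was not tested, and fewer samples enter. Counting error is largest for the genes of lowest count, Rpl24 and Rps6 among them.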
